A study of Mus musculus with 18 samples.

Results

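Transcripts of 10 genes that build, cut or protect Bruch's membrane were followed in retinal pigment epithelium (RPE) of young and old mice and of old mice that received a gene therapy vector. The genes are the metalloproteinase inhibitors Timp1, Timp2 and Timp3, the proteases Mmp2, Mmp14 and Htra1, the elastic fibre genes Efemp1, Eln and Lox, and the procollagen processing gene Pcolce2. They were found by symbol among the 21859 rows of the gene count table, and 10 of 10 passed the filter on low counts that 15944 genes passed. Pcolce2 was chosen by its measured rise after OSK in these libraries, so its values in that contrast are a description without a test. The 18 libraries fall into 4 groups. Young (7 libraries) and Old (4 libraries) are RPE of mice whose labels name no vector. Old control (3 libraries) is RPE of old mice given AAV2-tTA, and Old OSK (4 libraries) is RPE of old mice given AAV2-tTA;TRE-OSK. AAV2 is a serotype of adeno-associated virus, tTA is a transactivator controlled by tetracycline, TRE is the promoter that tTA drives, and OSK stands for Oct4, Sox2 and Klf4, transcription factors used in reprogramming. Both vector groups therefore carry tTA and differ by the TRE-OSK cassette. The promoter that drives tTA, the share of RPE cells that took up vector, and the ages, doses and times are not given in the sources used here. No label says that libraries of a group came from separate animals, so p-values measure only the spread between libraries.

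Bruch's membrane is the layered sheet of collagen, elastin and basement membrane between the RPE and the choroidal blood vessels, and RPE cells secrete much of it. Its turnover is set by metalloproteinases such as Mmp2, a gelatinase, and Mmp14, a membrane-bound enzyme that activates pro-Mmp2 in a complex with Timp2, and by the TIMP proteins that block them. Timp3 binds to the matrix itself, and mutations of the human gene cause Sorsby fundus dystrophy, in which Bruch's membrane thickens. Efemp1 encodes fibulin-3, whose human mutation causes Malattia Leventinese with drusen beneath the RPE. HTRA1, a secreted serine protease, lies at a human risk locus of age-related macular degeneration. Eln encodes elastin, Lox the enzyme that crosslinks elastin and collagen, and Pcolce2 an enhancer of the proteinase that cuts the C-terminal propeptide from fibrillar procollagens.

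The libraries held 18104828 to 32348136 counted reads each. All 12 RPE markers examined were detected, and their summed level was 42860 to 70770 CPM (counts scaled to library size) in Young. It was lower in 6 libraries, at 28669 CPM in Old replicate 4, 21750 CPM in Old control replicate 2 and 16320 to 31970 CPM in the 4 Old OSK libraries. Old replicate 4 and Old control replicate 2 thus stood apart from their groups, and values without them are given beside the members they moved most. Markers of other cells were present in every group, with summed rod markers reaching 18410 CPM in Old control and 15540 CPM in Old OSK, and with 222 to 510 CPM for stroma. For the delivered factors, Pou5f1 (which encodes Oct4) and Sox2 rose in Old OSK over Old control by log2 6.86 and 3.58 (edgeR quasi-likelihood test, adjusted p = 0.024 and 0.00343), and the difference for Klf4 was 3.43 (adjusted p = 0.0631). The names of 6 libraries (Young replicates 5 to 7, Old control replicates 2 and 3, Old OSK replicate 4) carry a letter M that the labels do not explain. Those libraries held at least 4040 counts of Y-linked genes, and the other 12 at most 93. Counts of this kind are what RPE of male and of female mice would give, although no label gives the sex. M and sex therefore cannot be told apart here, and both are unevenly spread over the groups.

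The stretches just upstream of Pcolce2, Timp3 and Timp1 are shown because these 3 genes had the 3 largest differences between Old OSK and Old control in either direction. Each is the 250 bases before the RefSeq start on the plus strand of GRCm38.p6, written 5′ to 3′: chr9:95637378-95637627 for Pcolce2, chr10:86300162-86300411 for Timp3 and chrX:20869916-20870165 for Timp1. Capitals mark matches, on either strand, to the KLF/SP core CCACCC, the SOX core ACAAAG, the octamer ATGCAAAT bound by POU factors or the AP-1 site TGANTCA. These motifs were chosen after the values had been seen.
Pcolce2: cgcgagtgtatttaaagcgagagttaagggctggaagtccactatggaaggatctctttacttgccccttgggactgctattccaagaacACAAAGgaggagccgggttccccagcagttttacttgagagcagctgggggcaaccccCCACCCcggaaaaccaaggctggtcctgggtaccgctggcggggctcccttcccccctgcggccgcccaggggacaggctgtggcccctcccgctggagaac
Timp3: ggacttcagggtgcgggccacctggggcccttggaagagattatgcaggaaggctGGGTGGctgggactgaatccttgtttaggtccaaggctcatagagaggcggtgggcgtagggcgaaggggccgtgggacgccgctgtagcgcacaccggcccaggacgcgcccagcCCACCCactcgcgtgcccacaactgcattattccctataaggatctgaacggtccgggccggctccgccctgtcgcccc
Timp1: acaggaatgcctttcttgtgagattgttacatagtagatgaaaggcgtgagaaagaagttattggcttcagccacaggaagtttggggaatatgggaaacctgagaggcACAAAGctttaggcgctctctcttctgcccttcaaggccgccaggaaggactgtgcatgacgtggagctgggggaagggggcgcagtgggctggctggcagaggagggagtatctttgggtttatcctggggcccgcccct
The Pcolce2 stretch held 1 CCACCC that begins 102 bases before the start and 1 ACAAAG at 160 bases. Timp3 had 2 CCACCC matches, at 79 bases on the plus strand and at 195 bases on the minus strand, where it reads GGGTGG in the printed line. Timp1 had 1 ACAAAG at 141 bases. Among 32851 mouse upstream stretches of the same length, 28.1% held CCACCC, 16.5% ACAAAG, 1.6% ATGCAAAT and 6.75% TGANTCA. Of the 7 members with a stretch in the RefSeq table, 5 held CCACCC (Htra1, Pcolce2, Timp3, Timp2 and Mmp14), 2 held ACAAAG, 1 (Efemp1) held TGANTCA and 0 held ATGCAAAT. Whether these counts depart from the shares above was not tested, and the mouse stretches were not matched for base content. A match describes letters in this window and is not a binding site.

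Per kilobase of exon, Timp3 was the most abundant of the 10 transcripts in every group by its mean. In Young it reached 488 ± 59.8 CPM per kb (SD, n = 7), followed by Timp2 at 168 ± 23.9, Efemp1 at 66.4 ± 34.6, Htra1 at 34.3 ± 6.45, Mmp14 at 13.1 ± 4.15 and Pcolce2 at 9.22 ± 0.836 CPM per kb. Eln (2.51 ± 1.51), Timp1 (2.31 ± 1.58), Mmp2 (1.96 ± 0.523) and Lox (0.96 ± 0.361 CPM per kb) were the lowest. Libraries of Timp3 and Timp2, of Timp2 and Efemp1, of Htra1 and Mmp14, and of Pcolce2 and Eln did not overlap in Young, whereas Efemp1 overlapped Htra1, Mmp14 overlapped Pcolce2, and the 4 lowest genes overlapped their neighbours. In Old OSK the first 3 places were the same but closer together, with 144 ± 35.5 for Timp3, 113 ± 12.2 for Timp2 and 101 ± 17.8 CPM per kb for Efemp1 (SD, n = 4), and Pcolce2 (37.4 ± 9.66) stood beside Htra1 (37.1 ± 3.86). Timp1 moved from place 8 in Young to place 6 in Old OSK at 19.6 ± 10.9 CPM per kb. From here on, levels are in CPM, which is not corrected for gene length, and compare 1 gene between libraries.

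**Figure D1:**
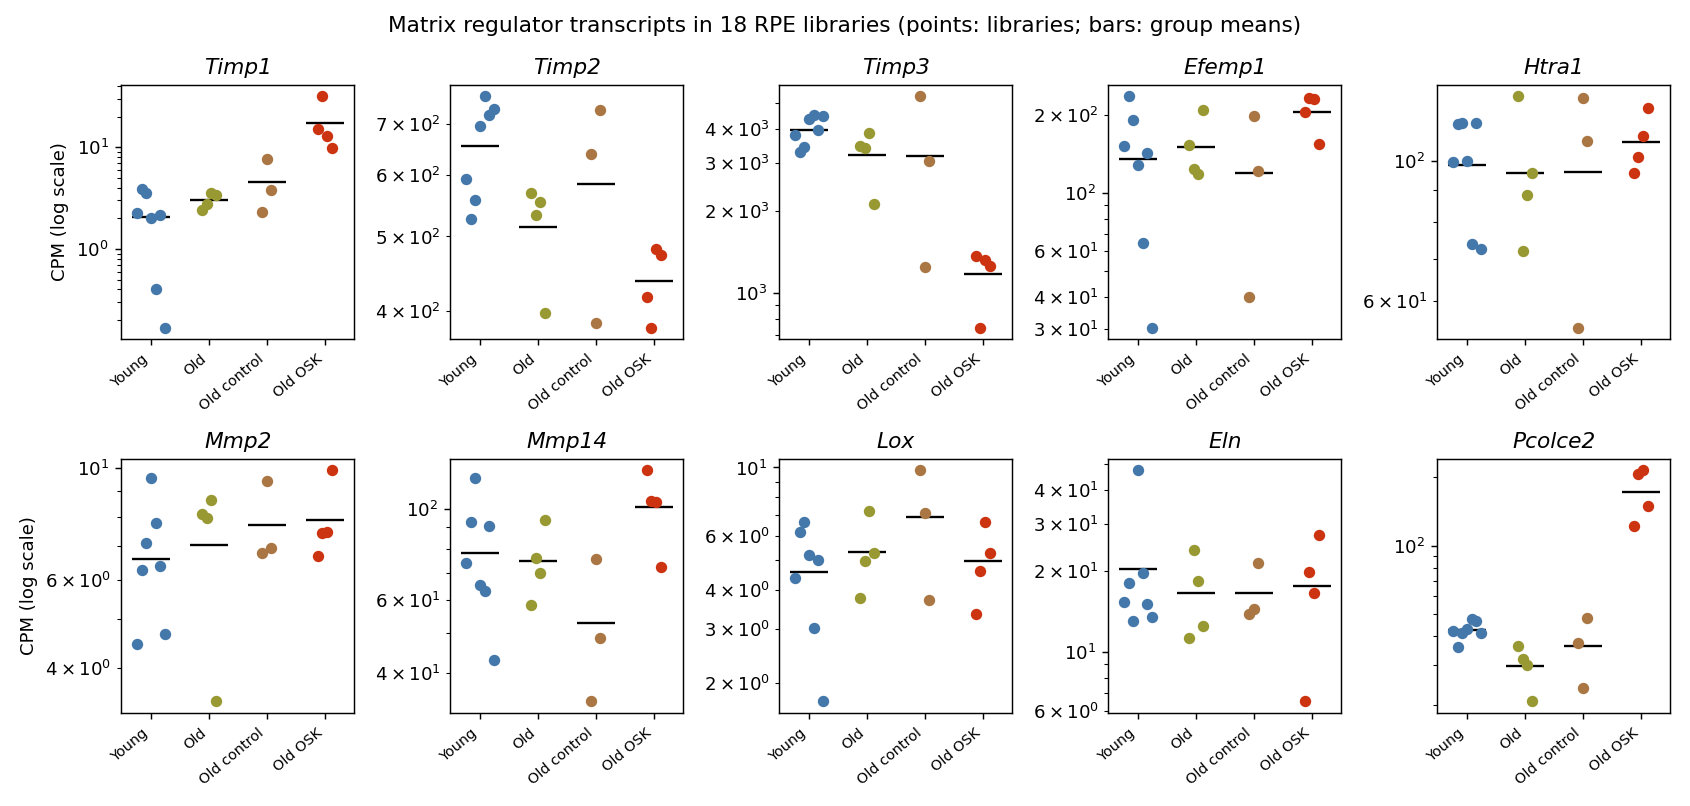
CPM (log axis) of each of the 10 genes in 18 libraries; each point is 1 library and each bar a group mean (7 Young, 4 Old, 3 Old control, 4 Old OSK). The Old OSK points lie at 122 to 215 CPM for Pcolce2, above all other groups, and at 746 to 1368 CPM for Timp3, where 1 Old control point (1248 CPM) lies among them.

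What the OSK cassette did to these genes beyond the tTA vector was addressed by Old OSK against Old control. Timp3 averaged 1175 CPM against 3189 CPM, Timp1 17.4 against 4.56 CPM and Mmp14 101 against 52.8 CPM, and Pcolce2, the gene chosen on this contrast, 173 against 36.3 CPM. None of the other 9 members passed the test over 15944 genes (edgeR quasi-likelihood test, adjusted p from 0.0588 to 0.967), and 4 of the 9 (Timp1, Timp2, Timp3 and Mmp14) had an unadjusted p under 0.05, as did 26.3% of all genes. Over all genes 0.408% were called higher and 0.32% lower. Of the 9, 6 had a positive and 3 a negative difference, and their median was 0.09 on the log2 scale against -0.03 over all genes. For 1 of the 9, Timp1, the Old OSK range lay wholly above that of Old control, a pattern that 6.55% of all genes showed, and 0 lay wholly below (5.84% of all genes). DESeq2 called 3 of the 9 members, Timp1, Timp3 and Mmp14 (adjusted p = 0.038, 0.00411 and 0.0302), and 10.3% of all genes in either direction. Without Old control replicate 2, edgeR called 4, adding Timp2, beside 17.9% of all genes. Without Old OSK replicate 4 it called 2 (Timp3 and Mmp14) beside 11% of all genes, and with equally numbered libraries as a block 1 (Timp1) beside 3.02%.

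**Figure D2:**
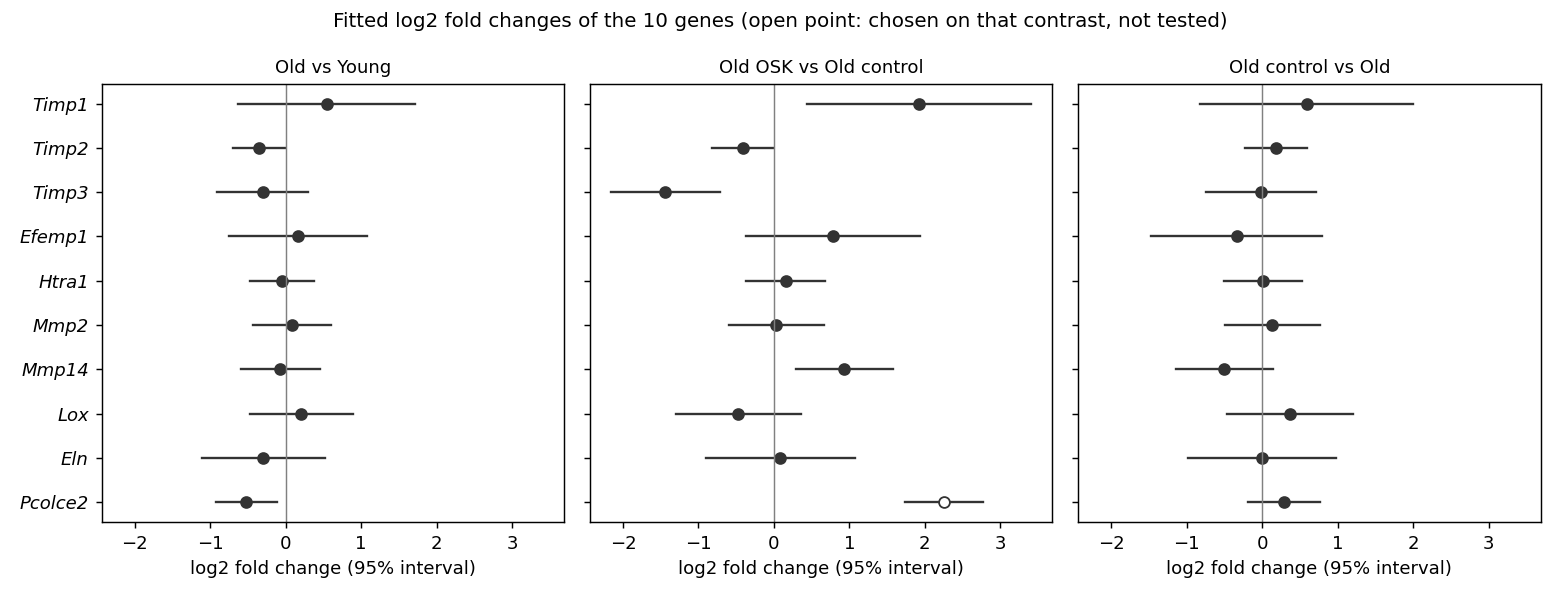
Log2 fold changes of the 10 genes with 95% intervals from the edgeR fit of 18 libraries, for Old vs Young, Old OSK vs Old control and Old control vs Old; the open point is Pcolce2 in the contrast it was chosen on. In Old OSK vs Old control the interval of Timp3 runs from -2.16 to -0.717, and in Old control vs Old all 10 intervals include 0.

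Among the inhibitors, Timp3 in Old OSK replicates 1 to 4 stood at 1368, 746, 1325 and 1259 CPM. The Old control replicates 1 to 3 had 5266, 1248 and 3052 CPM. Replicate 2 of Old control lay inside the Old OSK range, and the other two lay above it. The fitted log2 difference was -1.44 (SE 0.342, adjusted p = 0.0588). Leaving out Old control replicate 2 gave -1.85 (adjusted p = 0.00318), Old control replicate 1 gave -0.87 (adjusted p = 0.342), and Old OSK replicate 4 gave -1.51 (adjusted p = 0.0303). Among the libraries named with M, the values were 1248 and 3052 CPM in Old control against 1259 CPM in Old OSK. Among those without M, they were 5266 CPM against 746 to 1368 CPM. The Timp3 gene (chromosome 10, 86300412 to 86349505, plus strand) overlaps Syn3 on the opposite strand, and 21.3% of its exon bases are shared with Syn3 exons. How the counting treated strand is not given in the sources used here, and Syn3 itself had 52 to 186 counts per library against 17950 or more for Timp3. These counts do not show whether reads in the shared bases were counted, so Timp3 levels per kilobase and TIMP shares carry that limit.

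Timp2, the TIMP that also takes part in pro-Mmp2 activation, had 417, 381, 482 and 473 CPM in Old OSK and 639, 386 and 729 CPM in Old control. Again Old control replicate 2 sat among the Old OSK libraries. The log2 difference was -0.41 (SE 0.193, adjusted p = 0.184), and leaving out that control library gave -0.67 (adjusted p = 0.0197).

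Timp1, the inhibitor that is induced in many injured tissues, had 15.2, 31.5, 13 and 9.8 CPM in Old OSK and 2.33, 7.58 and 3.77 CPM in Old control. The groups did not overlap, and the nearest libraries were Old OSK replicate 4 and Old control replicate 2. The means differed 3.81-fold, and the log2 difference was 1.92 (SE 0.704, adjusted p = 0.114). It was called when equally numbered libraries were treated as pairs (2.17, adjusted p = 0.0445) and without Old control replicate 2 (2.46, adjusted p = 0.0488), and was 1.28 (adjusted p = 0.36) with the letter M in the model. The pairs left out Old OSK replicate 4. In numbers 2 and 3 they set an Old control library with M against an Old OSK library without it, so M and OSK are mixed in that fit. Within M the Old control libraries had 7.58 and 3.77 CPM and the Old OSK library 9.8 CPM, and outside it the Old control library had 2.33 CPM and the Old OSK libraries 13 to 31.5 CPM. Timp1 rested on few reads, from 3 in Young replicate 7 to 757 in Old OSK replicate 2.

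Summed per kilobase, the 3 TIMP transcripts reached 659 ± 81.1 CPM per kb in Young (n = 7), 531 ± 112 in Old (n = 4) and 276 ± 34.7 in Old OSK (SD, n = 4). The Old control libraries stood at 813, 261 and 566 CPM per kb, so that replicate 2 was again at the Old OSK level. Timp3 made up 74.2% ± 0.947 of the sum in Young and 74.2% ± 2.24 in Old. Its share was 79.5%, 58.8% and 66.2% in the Old control libraries and 57.5%, 40.7%, 54.1% and 53.9% in the Old OSK libraries. Every Old OSK share was thus below every Old control share, including replicate 2. Timp1 contributed 0.381% ± 0.291 in Young, 0.323%, 3.27% and 0.75% in Old control, and 5.86%, 15.8%, 4.85% and 3.85% in Old OSK. The lowest Old OSK share lay just above that of Old control replicate 2. The ratio of Timp3 to Timp2 per kilobase was 2.92 ± 0.146 in Young, 2.97 ± 0.324 in Old, 3.95, 1.55 and 2 in Old control, and 1.57, 0.937, 1.32 and 1.27 in Old OSK, where the highest Old OSK value passed the lowest Old control value.

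**Figure D3:**
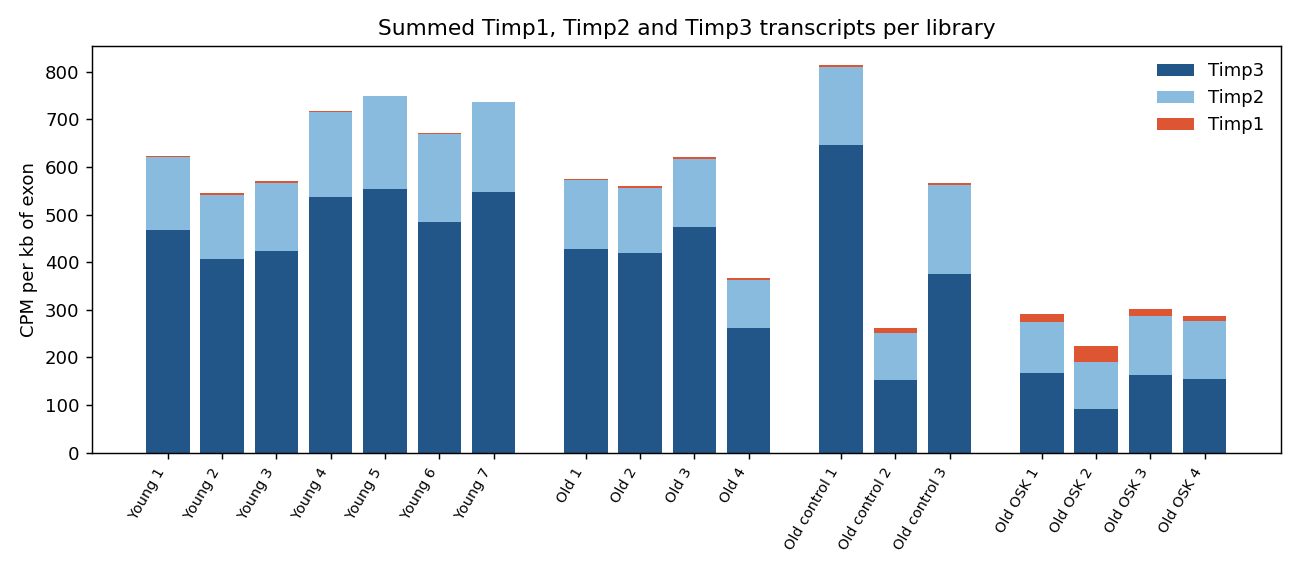
Stacked bars of Timp3, Timp2 and Timp1 in CPM per kilobase of exon, 1 bar per library. Bars of the 4 Old OSK libraries end between 225 and 301 CPM per kb, and those of Young between 545 and 749 CPM per kb.

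The RPE markers moved with Timp3. Their summed level was 66647, 21750 and 57933 CPM in Old control and 31969, 16320, 24210 and 28675 CPM in Old OSK. Of the 12 markers, 11 had a negative difference in Old OSK against Old control (median -0.96), and 0 were called. The 6 libraries with the lowest marker sums were also the 6 with the lowest Timp3: the 4 Old OSK libraries, Old control replicate 2 and Old replicate 4. After subtraction of group means, the deviations of Timp3 and of the marker sum had r = 0.943 over the 18 libraries. Those of Timp2 had r = 0.877, and those of Mmp14, Efemp1 and Timp1 had r = -0.703, -0.683 and -0.627. With the summed macrophage markers, Mmp14, Efemp1 and Timp1 had r = -0.704, -0.777 and -0.653, and Timp3 and Timp2 0.624 and 0.596. Timp1 also had r = -0.718 with the summed red blood cell markers. The part of these cells was not tested. Bulk RNA cannot tell fewer RPE cells from less of these RNAs per cell. Divided by the marker sum, a measure chosen after the values had been seen, Timp3 stood at 71.4 ± 5.85 CPM per 1000 marker CPM in Young (n = 7) and 72.1 ± 4.15 in Old (n = 4). The ratio was 79, 57.4 and 52.7 in Old control and 42.8, 45.7, 54.7 and 43.9 in Old OSK, where replicate 3 exceeded the lowest Old control library. Timp2 on the same scale stood at 11.7 ± 1.16 in Young, 11.7 ± 1.45 in Old, 9.58, 17.7 and 12.6 in Old control, and 13.1, 23.4, 19.9 and 16.5 in Old OSK. Its Old OSK mean of 18.2 thus lay above the Old control mean of 13.3, the opposite of its direction in CPM, and the ranges overlapped. The part of RPE content in either difference was not tested beyond this ratio.

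**Figure D4:**
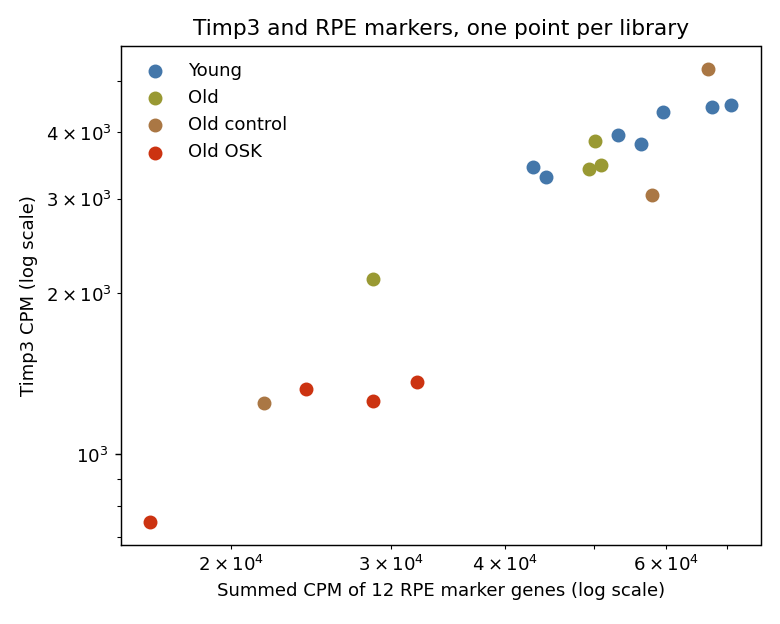
Timp3 CPM against the summed CPM of 12 RPE marker genes, both on log axes, 1 point per library coloured by group. The 6 lowest points on both axes are the 4 Old OSK libraries, Old control replicate 2 (1248 CPM) and Old replicate 4 (2127 CPM).

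Among the proteases, Mmp14 had 124, 104, 104 and 72 CPM in Old OSK and 34.2, 75.5 and 48.6 CPM in Old control. Old OSK replicate 4 lay just under Old control replicate 2, and the other Old OSK libraries lay above all controls. The log2 difference was 0.94 (SE 0.307, adjusted p = 0.0941). It was called without Old control replicate 2 (1.25, adjusted p = 0.0198) and without Old OSK replicate 4 (1.03, adjusted p = 0.0481). The M libraries had 75.5 and 48.6 CPM in Old control against 72 CPM in Old OSK, and the others 34.2 CPM against 104 to 124 CPM. Mmp2, the target of Mmp14, had 6.68, 7.44, 7.46 and 9.89 CPM in Old OSK and 6.78, 9.4 and 6.94 CPM in Old control. These ranges covered each other, and the log2 difference was 0.03 with a 95% interval of -0.6 to 0.66. Htra1 had 95.6, 101, 110 and 121 CPM in Old OSK and 54.5, 126 and 108 CPM in Old control. Its difference was 0.16 with an interval of -0.363 to 0.674, and the Old OSK libraries lay within the spread of the controls.

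Of the elastic fibre genes, Efemp1 had 206, 233, 231 and 155 CPM in Old OSK and 39.8, 198 and 122 CPM in Old control. Old OSK replicate 4 lay below Old control replicate 2, and the log2 difference was 0.78 (SE 0.543, adjusted p = 0.389). It was 1.31 (adjusted p = 0.129) without Old control replicate 2 and 0.36 (adjusted p = 0.776) without Old control replicate 1. Eln had 6.54, 19.9, 16.5 and 27.3 CPM in Old OSK and 13.9, 14.4 and 21.4 CPM in Old control. The Old OSK libraries held both the lowest and the highest of these values, and the difference was 0.09 with an interval of -0.897 to 1.07. Lox had 3.34, 4.61, 6.64 and 5.27 CPM in Old OSK and 9.8, 7.14 and 3.73 CPM in Old control, with overlap and a difference of -0.47 (interval -1.3 to 0.363). At the spread between these libraries, differences anywhere within the intervals of Eln and Lox remain possible.

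Pcolce2 (chromosome 9, 95637628 to 95695551) had 122, 206, 215 and 149 CPM in Old OSK and 37.4, 23.6 and 48 CPM in Old control. The lowest Old OSK library lay above the highest of the other 14 libraries, and the gene was selected for such a rise. The means differed 4.76-fold, and the fitted log2 difference was 2.25 (SE 0.244), between 1.98 and 2.5 when single libraries were left out. These values come from the libraries that the gene was chosen on, so neither the SE nor the range tests the rise. Old control replicate 2, which stood apart in Timp3 and Timp2, was also the lowest control library for Pcolce2. Within M the values were 23.6 and 48 CPM in Old control against 149 CPM in Old OSK, and outside it 37.4 CPM against 122 to 215 CPM. Deviations of Pcolce2 from group means had r = 0.451 with the RPE marker sum. With summed Mueller glia markers r was 0.544, with pericyte and smooth muscle markers 0.477 and with cone markers -0.429. The group difference of Pcolce2 was positive and those of 11 of 12 RPE markers negative. The part of any of these cells in the Pcolce2 values was not tested.

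Whether age changed the 10 genes was addressed by Old against Young. Pcolce2 and Timp2 had the lowest unadjusted p, both with lower levels in Old. Pcolce2 was at 29.7 ± 6.58 CPM in Old against 42.6 ± 3.87 CPM in Young, and Timp2 at 514 ± 78.3 against 654 ± 93 CPM (SD, n = 4 and 7). The largest log2 difference was the rise of Timp1 (0.54). Called were 0 of 10 members (edgeR quasi-likelihood test, adjusted p from 0.085 to 0.908), with an unadjusted p under 0.05 for 2 of them, Timp2 and Pcolce2, beside 29% of all genes. DESeq2 called 0 of 10 and 15.4% of all genes. Over all 15944 genes, 5.4% were called higher and 4.16% lower with age. Of the members, 4 had a positive and 6 a negative difference, with a median of -0.06 on the log2 scale against -0.004 over all genes, and 0 of 10 had groups that did not overlap (3.69% of all genes lay entirely higher and 5.61% entirely lower).

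In the age contrast Pcolce2 had 36.4, 31.7, 30 and 20.7 CPM in the Old libraries and a lowest, median and highest value of 35.9, 42.3 and 47.8 CPM in Young. A single Old library, replicate 1, reached into the Young range. The log2 difference was -0.52 (SE 0.19, adjusted p = 0.085). It passed the threshold when the 2 groups were fitted alone (-0.49, adjusted p = 0.0443), a fit that called 11.3% of all genes, and was -0.38 (adjusted p = 0.324) without Old replicate 4. Timp2 had 569, 533, 555 and 399 CPM in Old and 526, 695 and 759 CPM as the lowest, median and highest in Young. All Old libraries but replicate 4 overlapped Young, and the difference was -0.35 (SE 0.162, adjusted p = 0.164), or -0.24 (adjusted p = 0.476) without replicate 4. No Old library carries the letter M, and the 4 Young libraries without it had 526 to 695 CPM of Timp2 and 35.9 to 42.9 CPM of Pcolce2. With M in the model the differences were -0.27 (adjusted p = 0.347) for Timp2 and -0.52 (adjusted p = 0.151) for Pcolce2. Timp3 had 3474, 3411, 3862 and 2127 CPM in Old against 3307, 3950 and 4506 CPM in Young. Only Old replicate 4 was outside the Young range, and the difference was -0.31 (SE 0.285, adjusted p = 0.509), or -0.15 (adjusted p = 0.835) without it.

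Timp1 had 2.39, 2.77, 3.53 and 3.41 CPM in Old and 0.169, 2.15 and 3.85 CPM as the lowest, median and highest in Young, so that Old lay within the Young range (difference 0.54, interval -0.626 to 1.71). Mmp14 had 58.6, 76.1, 70 and 94 CPM in Old and 43.1, 73.7 and 119 CPM in Young, again with Old inside the range of Young (-0.07, interval -0.588 to 0.454). Efemp1 had 154, 124, 119 and 209 CPM in Old against 30.4, 143 and 236 CPM in Young (0.16, interval -0.756 to 1.08), and its difference was -0.03 (adjusted p = 0.979) without Old replicate 4. The other 4 members, Htra1, Mmp2, Lox and Eln, had log2 differences between -0.3 and 0.21. Their intervals all included 0, the widest being that of Eln, from -1.11 to 0.517. The Young libraries of Efemp1 were spread with a coefficient of variation of 52.1%, those of Timp1 with 68.2% and those of Pcolce2 with 9.07%. Of the 12 RPE markers, 11 had a negative difference with age (median -0.34) and 0 were called, while 7 of 10 macrophage markers were called higher, and the part of either in the members' values was not tested.

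For the tTA vector itself, Old control was compared with Old. No Old library carries the letter M, while Old control replicates 2 and 3 do, so this contrast mixes the vector with M. With M in the model, the members that moved most were Timp1 (from 0.59 to 1.41), Efemp1 (from -0.34 to 0.115) and Lox (from 0.37 to 0.69), and 0 members were called. The Timp3 means were close, at 3189 ± 2012 and 3219 ± 755 CPM (SD, n = 3 and 4), and the members' log2 differences ran from -0.5 for Mmp14 to 0.59 for Timp1. Called were 0 of 10 members (lowest adjusted p = 0.9) and 0% of all genes higher and 0% lower by edgeR, with 596 genes (3.74%) at an unadjusted p under 0.05 and 0 called by DESeq2. None of the 10 had groups that did not overlap, against 2.25% of all genes entirely higher and 0.928% entirely lower. The interval for Timp3 ran from -0.739 to 0.712 and that for Pcolce2 from -0.187 to 0.771. These libraries thus leave differences within those intervals possible. The intervals do not give the smallest change that the test could have called.

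Within groups, the 10 genes varied in a pattern of opposed blocks. Of 45 pairs, 10 had a Pearson r of at least 0.5 and 7 of at most -0.5 for deviations from group means over the 18 libraries, which share depth scaling and RPE content. The share of such pairs among all genes was not computed, so these counts do not set the members apart. The deviations were not adjusted for the letter M. Timp2 and Timp3 varied together (r = 0.816), and Timp2 with Pcolce2 (0.728). Timp1, Efemp1, Mmp14 and Htra1 formed the other block, with r = 0.896 for Timp1 and Efemp1, 0.855 for Efemp1 and Mmp14, 0.795 for Timp1 and Mmp14 and 0.789 for Efemp1 and Htra1. Between the blocks the values were negative, for example -0.699 for Timp2 and Mmp14 and -0.658 for Timp3 and Efemp1. Young replicate 7, which carries M, shows this at the level of 1 library. It had the lowest Timp1, Efemp1, Mmp14, Htra1 and Lox of the Young group. Its Timp3 level of 4460 CPM was near the top of the group. Eln and Mmp2 belonged to neither block. Eln deviated with summed endothelial markers (r = 0.855) and Mmp2 with summed stromal markers (r = 0.658), whose part in these values was not tested.

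**Figure D5:**
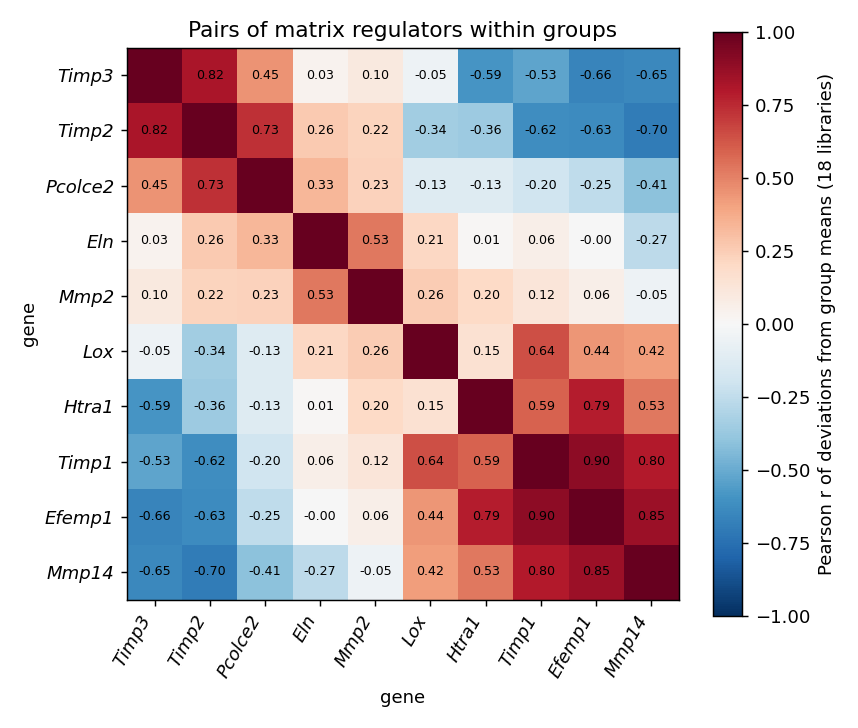
Pearson r between the 10 genes for deviations of log2 CPM from group means over 18 libraries, with red for positive and blue for negative values. Timp1, Efemp1, Mmp14 and Htra1 form a red block with r up to 0.896, and their cells with Timp2 and Timp3 are blue.

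Among 10232 genes whose mean log2 CPM reached 3, the 5 whose deviations were most like those of Timp3 were Abhd2 (r = 0.985), Fgfr2 (0.973), Tlcd4 (0.971), Itgb8 (0.967) and Rhobtb2 (0.967). For Pcolce2 they were Tyr (0.934), which encodes the tyrosinase of melanin synthesis, Plcl1 (0.901), Prps2 (0.889), Nedd4 (0.888) and Cers1 (0.87). These are the top of a ranking over 18 libraries and are given as a description. Fgfr2 lies across the opposite strand of Htra1 without sharing exon bases.

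The rest of the pathway was read from 5 lists of genes. Over all genes edgeR called 5.4% higher and 4.16% lower with age, and 0.408% higher and 0.32% lower after OSK. In the OSK contrast DESeq2 called 10.3% of all genes in either direction, the replicate block 3.02%, and edgeR without Old control replicate 2 17.9%. Whether the calls in a list depart from these shares was not tested. Among 36 other metalloproteinases tested, 3 rose with age (Mmp12, Mmp3 and Adam15) and 2 fell (Adam10 and Adam9). Mmp12, the macrophage elastase, was at 5.1 ± 2.75 CPM in Old against 1 ± 0.386 CPM in Young (log2 2.35, adjusted p = 0.00159), and Mmp3, stromelysin-1, at 11.9 ± 6.2 against 1.93 ± 0.726 CPM (2.62, adjusted p = 0.00266; SD, n = 4 and 7). Adam10, a sheddase of many surface proteins, was at 108 ± 5.42 against 139 ± 6.05 CPM (-0.37, adjusted p = 0.0146). Adam15 (0.59, adjusted p = 0.0347) and Adam9 (-0.49, adjusted p = 0.0388) are named after their values were seen. They kept the call in 4 and 3 of the 11 fits that left out 1 library, and Old replicates 2, 3 and 4 were each among the libraries without which both lost it. The direct partners Mmp2 and Mmp14 thus had small age differences (0.09 and -0.07) beside larger ones of Mmp3 and Mmp12, whose difference from those of the members was not tested.

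In Old OSK against Old control 1 of the 36 was called. Adam15, a membrane metalloproteinase with an integrin-binding domain, rose to 116 ± 21.8 CPM (range 89.9 to 139) from 36.8 ± 7.12 CPM (32.2 to 45), with a log2 difference of 1.66 (SE 0.209, edgeR adjusted p = 0.00123). The groups did not overlap, and the call held in all 7 fits that left out 1 library (1.55 to 1.83). Of 10 other alternatives, 9 called Adam15. It was lost when the 2 groups were fitted alone, where 0 of 32 metalloproteinases were called. Adam9 was at 85.1 ± 4.98 against 131 ± 32.8 CPM (-0.62, adjusted p = 0.0709) and Adam17 at 48.2 ± 11.1 against 32.7 ± 3.48 CPM (0.56, adjusted p = 0.0966), neither called. The median difference of the 36 was 0.04, and that of all genes -0.03. DESeq2 called 2 of the 36 higher and 1 lower, the replicate block 2 of 32 higher, and edgeR without Old control replicate 2 called 1 of 36 higher and 2 lower.

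Of 16 other protease inhibitors and serine proteases, 2 rose with age and 2 fell. Plau, the urokinase plasminogen activator, was at 4.88 ± 0.391 CPM in Old against 2.28 ± 0.551 CPM in Young (1.1, adjusted p = 0.00913), and its receptor Plaur at 1.89 ± 0.599 against 0.369 ± 0.34 CPM (2.32, adjusted p = 0.0153). Serpine2, an inhibitor of thrombin and urokinase, fell from 39.1 ± 6.59 to 21.4 ± 4.64 CPM (-0.87, adjusted p = 0.0135), and Spock1, named after its value was seen, had -0.5 (adjusted p = 0.0327). Serpine2 lost the call without Old replicate 2 (adjusted p = 0.0512), and Spock1 kept it in 5 of 11 fits that left out 1 library (lost without Young replicates 5 to 7 and Old replicates 2 to 4). After OSK, 0 of 16 were called. Plau stood at 9.11 ± 2 against 4.36 ± 1.86 CPM (1.06, adjusted p = 0.0715) and the C1 inhibitor Serping1 at 98.9 ± 24 against 45.9 ± 17.5 CPM (1.11, adjusted p = 0.0908). DESeq2 called 2 of the 16 higher, the block 1 higher, and edgeR without Old control replicate 2 called 3 higher and 2 lower.

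Among 21 other elastic fibre genes, 0 rose and 2 fell with age, and 3 had a positive difference. Fbn1, which encodes the main protein of microfibrils, was at 198 ± 31.1 CPM in Old against 368 ± 63.7 CPM in Young (-0.89, adjusted p = 0.00511), and Loxl2, a relative of Lox, at 9.26 ± 1.7 against 15.9 ± 2.94 CPM (-0.78, adjusted p = 0.0125). Loxl2 lost the call without Old replicate 4 (adjusted p = 0.0626). Ltbp3, a latency protein of TGF-beta, was at 299 ± 40.2 against 407 ± 28.8 CPM (-0.45, adjusted p = 0.0567). Lox itself had 0.21 and Eln -0.3. Stroma and fibroblast markers moved with these falls: 2 of 10 were called lower with age, the median difference was -0.43, and their sum was 232 to 326 CPM in Old (median 302) against 292 to 510 CPM in Young (median 431). Their part in this list, and in the procollagen and basement membrane lists, was not tested. After OSK 0 of 21 were called, with Loxl2 at 13.1 ± 2.18 against 7.77 ± 1.36 CPM (0.75, adjusted p = 0.072). Ltbp4 was at 62.2 ± 12.7 against 28.3 ± 2.49 CPM (1.13, adjusted p = 0.0886). DESeq2 called 3 of the 21 higher, the block 2 higher, and edgeR without Old control replicate 2 called 1 higher and 3 lower.

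Of 22 other procollagen processing genes, 0 rose and 3 fell with age. Bmp1, the C-proteinase whose action Pcolce2 enhances, was at 19.8 ± 1.01 CPM in Old against 31.5 ± 1.62 CPM in Young (-0.67, SE 0.0914, adjusted p = 0.000547), and its groups did not overlap. Adamts2, the N-proteinase, was at 2.33 ± 0.531 against 5.05 ± 1.51 CPM (-1.12, adjusted p = 0.028). Serpinh1, a collagen chaperone, was at 124 ± 17.3 against 170 ± 13 CPM (-0.46, adjusted p = 0.0376). Adamts2 kept the call in 8 of 11 fits that left out 1 library (lost without Young replicate 6 and Old replicates 3 and 4), Serpinh1 in 2 (with Young replicate 3 or Old replicate 1 left out) and Bmp1 in 11. After OSK 0 of 22 were called. DESeq2 called 2 higher, the block 0 of 21, and edgeR without Old control replicate 2 called 1 of 23 lower. The difference of Bmp1 after OSK was -0.2 (adjusted p = 0.255), beside the 2.25 of Pcolce2, and the lowest p belonged to P4hb, a subunit of collagen prolyl hydroxylase (0.42, adjusted p = 0.0901).

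Of 20 basement membrane genes, 2 rose with age, Lamb3 among them, and 5 fell (Sparc, Lamb1, Nid2, Lamc1 and Dag1). Sparc, a collagen-binding matricellular protein, was at 441 ± 78.8 CPM in Old against 926 ± 96.4 CPM in Young (-1.07, adjusted p = 0.000322). The laminin chain gene Lamb1 was at 143 ± 25.7 against 209 ± 14.8 CPM (-0.54, adjusted p = 0.019), and Lamb3 at 20.4 ± 13.1 against 4.72 ± 3.36 CPM (2.1, adjusted p = 0.026). Without Old replicate 4, 1 of the 20 (Sparc) was called lower and 0 higher. Leaving out Old replicate 2 also gave 1 lower and 0 higher, and the letter M in the model gave 2 lower and 0 higher. After OSK 0 of 20 were called, although 14 had a positive difference (median 0.37 against -0.03 over all genes) and 7 had Old OSK libraries entirely above Old control, where 6.55% of all genes did. Lamb3 stood at 29.7 ± 13.7 against 6 ± 2.1 CPM (2.3, adjusted p = 0.0875). DESeq2 called 3 of the 20 higher, the block 3 higher, and edgeR without Old control replicate 2 called 1 higher and 1 lower. In Old control against Old, 0 genes of the 5 lists were called.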

How the data were processed

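For the 18 libraries the authors deposited raw, whole-number counts of reads by gene in 1 table. PolyA RNA, extracted with TRIzol, was copied with SMART-Seq v4 and turned into Nextera XT libraries, per the labels' protocols. The submitters' processing notes name STAR 2.7.1a, featureCounts 1.6.2 and the builds GRCm38 (mm10) and GRCh38 (hg38). The annotation and the strand setting are not given in the sources used here. Reads were amplified by PCR without molecular identifiers, so counting error is a lower limit.

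Low counts were removed in edgeR 4.0.16 under R 4.3.3 (filterByExpr with its smallest count set to 10 and smallest total to 15); the rest were scaled by TMM and fitted as 4 group means over 18 libraries with the quasi-likelihood test. Benjamini-Hochberg adjustment ran over 15944 genes, and a gene was called at an adjusted p under 0.05. CPM used TMM-scaled library sizes, and per-kilobase values used merged GENCODE exons of GRCm38. Within-group deviations were taken on log2 CPM (prior count 2). The scripts were tested on simulated data. Members and lists were chosen with earlier results of these data known. All members were named, and up to 3 genes of lowest p per list and contrast. For Timp3 and Pcolce2 the 5 most similar genes were named. 1 further gene of a list is not reported here.

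Alternatives were DESeq2 1.42.0, its size factors, other filters, robust empirical Bayes, the letter M as a term, the 2 groups alone, a replicate block, leaving out each library, and, added after the data were seen, leaving out Old replicate 4 and Old control replicate 2. Libraries of Old OSK and Old control with the same number had deviations with r = 0.103, 0.421 and 0.339 across genes. Old control against Old had 0.197, -0.189 and 0.359, and Old against Young -0.0497, -0.0191, 0.144 and -0.193. Unequally numbered libraries were not compared this way, so these values do not show whether equal numbers belong together. The replicate block treated equal numbers as pairs although no label states a pairing, and the main fit did not. In numbers 2 and 3 the Old control libraries carry M and the Old OSK libraries do not, so those pairs join libraries that differ in M. Replicates differed by at least 21.2 chi-square units per gene, so none were merged. Of the rows, 50 shared 24 symbols and were kept apart.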

Additional observations from a re-analysis of the deposited data

Results flagged for a closer look

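Of 30 group values of the members checked for a sample far from the others, 2 stood out, and chance gives about 1 in 20. Mmp2 was at 3.44 CPM in Old replicate 4, while the other Old libraries had 7.94 to 8.64 CPM. The gap was 0.867 of the group's range. Eln was at 47.6 CPM in Young replicate 4, against 13.1 to 19.7 CPM in the other Young libraries, with a gap of 0.809 of the range. Summed endothelial markers were 317 CPM in that library and 87.1 to 111 CPM in the other Young libraries.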

How the results depend on the processing

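In Old OSK against Old control, members called went from 0 to 1 with a filter at a mean of 50 counts (Timp3, adjusted p = 0.0495), 3 with DESeq2, 1 with the replicate block (Timp1), and 4 without both libraries that stand apart. Leaving out single libraries gave 0 to 4. In Old against Young 1 member was called when the 2 groups were fitted alone. Genes called in Old OSK against Old control were 116, and 1640 with DESeq2, 58 with the letter M, 2 with the 2 groups alone, 461 with the replicate block, 990 in the same libraries without it, 3729 without both libraries, and 13 to 2881 without single libraries (the highest without Old control replicate 2). For Old against Young they were 1524, and 2452 with DESeq2, 600 with M, 0 with the block, 191 without it, 622 without both libraries, and 393 to 2140 without single libraries (the lowest without Old replicate 4). The cause was not tested. With DESeq2 size factors, 68.8% of the OSK calls were higher, against 56%, and without Old control replicate 2 it was 35%. The block changed no member's call other than that of Timp1. The differences that turned sign follow. In Old control against Old, with DESeq2 size factors, no filter, DESeq2, M, block, no block and both left out, Eln had -0.0123, -0.0142, -0.0128, -0.0308, -0.0856, -0.12 and -0.0248, and Htra1 -0.0238, -0.0273, -0.0239, -0.0805, -0.037, -0.00821 and -0.247. There Mmp2 had -0.119 with the block, -0.103 without it and -0.267 with both left out, Efemp1 0.115 with M, and Timp3 0.0539 with M and 0.209 with both left out. In Old OSK against Old control Eln had -0.323 with the block, -0.21 without and -0.0311 with both left out, and Mmp2 -0.0878 and -0.102 with and without the block. With age Efemp1 had -0.225 with the block, -0.226 without and -0.0196 with both left out, and Lox -0.0898 and -0.0702. Leaving out single libraries gave ranges that crossed 0. In Old control against Old they were -0.899 to 0.0785 (Efemp1), -0.227 to 0.233 (Eln), -0.236 to 0.288 (Htra1), -0.093 to 0.253 (Mmp2), -0.00413 to 0.414 (Timp2) and -0.582 to 0.371 (Timp3). After OSK they were -0.26 to 0.331 (Eln), -0.126 to 0.371 (Htra1) and -0.14 to 0.172 (Mmp2). With age they were -0.0326 to 0.356 (Efemp1), -0.53 to 0.0685 (Eln), -0.209 to 0.0685 (Htra1), -0.197 to 0.0632 (Mmp14) and -0.0275 to 0.318 (Mmp2). Depth limited Timp1, with 3 to 757 counts per library, more than Timp3, with at least 17950.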
